A study of Mus musculus with 28 samples.

Results

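The 7 Schlafen genes Slfn1, Slfn2, Slfn3, Slfn4, Slfn5, Slfn8 and Slfn9 were followed in murine bone marrow-derived macrophages (BMDMs) treated with von Willebrand factor (VWF). The genes were chosen by name, with earlier results of these data known, and all 7 were found among the 54532 genes of the count table. BMDMs were grown with M-CSF from the marrow of young adult C57/B6JB mice. They were then kept in fresh medium with 1 mM CaCl2 and incubated with human plasma-derived VWF (pd-VWF, 10 µg/ml), with bacterial lipopolysaccharide (LPS, 100 ng/ml) or with PBS as the control. RNA was sequenced after 3.5 h and 16 h in 28 cultures, of which each time had 5 with PBS, 5 with VWF and 4 with LPS. The labels call the cultures biological replicates and do not say which share a mouse or a preparation, so that p values describe the spread between these cultures.

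Schlafen genes take their name from the German word for sleep, because the founding members slowed the growth of thymocytes when they were overexpressed. The mouse proteins fall into a short group with Slfn1 and Slfn2, an intermediate group with Slfn3 and Slfn4, and a long group with Slfn5, Slfn8 and Slfn9 that carries a helicase-like region at its C-terminal end. Many members are induced by type I interferon, and the best known in the immune system is Slfn2, which keeps T cells and monocytes quiescent and shields transfer RNA from cleavage.

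The coding sequences in GENCODE M21 followed these groups in length. Without the stop codon, the longest one had 337 codons for Slfn1 and 378 for Slfn2, 602 for Slfn4 and 640 for Slfn3, 884 for Slfn5 and 910 for both Slfn8 and Slfn9. Slfn3 and Slfn4 were identical at 92.7% of their aligned coding bases, as were Slfn8 and Slfn9, and every other pair was identical at between 64.4% and 78.1%. On chromosome 11 of GRCm38 the genes lie in the order Slfn5, Slfn9, Slfn8, Slfn2, Slfn1, Slfn4 and Slfn3, in a cluster of 335 kb that ends at Slfn14 (chr11:82951349-83286726). Slfn8 and Slfn9 are transcribed from the minus strand and the other members from the plus strand.

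Exact stretches shared with other genes were counted, since reads from them could be assigned to either gene. Of all 100-base windows of a gene's transcripts, between 0% (Slfn1) and 3.71% (Slfn9) also occurred in another gene, apart from Slfn5 with 6.40%. The Slfn5 windows were shared mostly with Slfn5os, an antisense transcript that overlaps 8.84% of the Slfn5 exon bases. The strand setting of the counting is not given in the sources used here. Whether reads from this overlap were assigned to the right gene is therefore not known.

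Sequences just before the RefSeq start sites are shown as a description, and no link to the levels of the members was tested. Interferon acts through short promoter elements. The interferon-stimulated response element (ISRE) is bound by interferon regulatory factors, and its core was searched as GAAANNGAAA on both strands. In windows from 250 bases before to 50 bases after the start, this core was present in 3.44% of 32851 mouse promoters (RefSeq, GRCm38.p6). It was found in the windows of Slfn5, Slfn9 and both start sites of Slfn8, and in none of the windows of Slfn1, Slfn2, Slfn3 and Slfn4. The match, on either strand, is in capitals in the following stretches of 80 bases, printed 5′ to 3′ in the direction of the gene.

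Slfn8: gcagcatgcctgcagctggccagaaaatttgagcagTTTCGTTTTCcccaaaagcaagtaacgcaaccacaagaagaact
Slfn9: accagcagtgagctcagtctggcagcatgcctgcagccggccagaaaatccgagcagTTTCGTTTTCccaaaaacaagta
Slfn5: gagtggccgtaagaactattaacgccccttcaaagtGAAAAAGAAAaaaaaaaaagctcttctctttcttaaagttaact

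The stretch of Slfn8 lies at chr11:83020815-83020894 on the minus strand, that of Slfn9 at chr11:82991853-82991932 on the minus strand and that of Slfn5 at chr11:82951911-82951990 on the plus strand. The core began 48 bases before the start of Slfn8 and 45 bases before that of Slfn9, in promoters that were identical at 85.1% of aligned bases, and 155 bases before the start of Slfn5. Slfn1, Slfn2, Slfn3 and Slfn4 shared another run, ACTTCCTGG, which began between 42 and 74 bases before the start. It was absent from the windows of Slfn5 and Slfn9 and from the Slfn8 window with the core 48 bases before the start. The other Slfn8 window was not searched for it. The run was present on either strand in 0.843% of all windows. It was found as the longest run common to the promoters of Slfn1, Slfn2, Slfn3 and Slfn4, so its presence in them was set by that search. The share of all windows does not measure how often promoters have some run of this length in common. The run was not searched as a known element. It is in capitals in the next stretches, together with a match to the NF-κB consensus in Slfn1.

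Slfn1: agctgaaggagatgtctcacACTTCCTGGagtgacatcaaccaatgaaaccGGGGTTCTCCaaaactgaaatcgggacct
Slfn2: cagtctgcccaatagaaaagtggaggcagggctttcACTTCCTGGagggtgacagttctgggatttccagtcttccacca
Slfn4: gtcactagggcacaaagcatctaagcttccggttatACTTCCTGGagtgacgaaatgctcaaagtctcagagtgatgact
Slfn3: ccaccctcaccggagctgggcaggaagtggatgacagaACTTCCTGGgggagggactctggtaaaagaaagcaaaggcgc

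These lie on the plus strand at chr11:83116726-83116805 for Slfn1, chr11:83065021-83065100 for Slfn2, chr11:83175077-83175156 for Slfn4 and chr11:83191250-83191329 for Slfn3. The NF-κB consensus was present in 8.46% of all windows and, among the members, in Slfn1 and Slfn9, without overlap with the other matches. The gamma interferon-activated site TTCNNNGAA was present in 8.30% of all windows and in none of the members' windows. A match describes the letters, and binding was not measured.

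Total counts per culture ranged from 41131209 to 77699206. Control culture 5 and LPS culture 4 at 16 h stood apart from their groups, with median absolute log2 differences from the group of 0.54 and 0.43 against between 0.066 and 0.28 in the other cultures. Results at 16 h are given without them where that changes a call. All 7 macrophage markers were present in every group, but their levels moved with treatment. Their summed CPM was between 18175 and 26954 with VWF at 16 h against between 4430 and 15666 in controls. Of the 7, 3 were called higher, where 4.55% of all genes tested were, Fcgr1 (2.89 ± 0.23), Adgre1 (1.80 ± 0.21) and Itgam (1.18 ± 0.09). Most of the sum was Lyz2, which averaged 17066 CPM with VWF and 9639 CPM in controls and was not called. With VWF at 3.5 h Mertk was lower (-2.67 ± 0.29), and with LPS Fcgr1 was higher at 3.5 h (2.48 ± 0.13), Fcgr1 (4.48 ± 0.22) and Adgre1 (1.11 ± 0.24) were higher at 16 h, and Lyz2 was lower at 16 h (-1.38 ± 0.39). The T cell gene Cd3e and the neutrophil gene Ly6g stayed at or near 0. From the same lists, Cd4 averaged between 1.63 and 5.94 CPM over the groups, and S100a8 between 3.63 and 15.5 CPM. The 8 neutrophil markers summed to between 15.7 and 35.2 CPM with VWF at 16 h against between 8.24 and 20.2 CPM in controls, and to between 9.08 and 26.0 CPM with LPS at 3.5 h against between 4.41 and 11.9 CPM. Of these, Camp was called higher with VWF at 16 h (3.65 ± 0.86) and S100a9 with LPS at 3.5 h (1.73 ± 0.63). The summed CPM of the T cell list was between 33.8 and 61.8 with LPS at 3.5 h against between 4.41 and 9.03 in controls, through Lck (mean 44.2 CPM), and the dendritic cell gene Xcr1 averaged between 13.4 and 23.1 CPM with LPS at both times and with VWF at 3.5 h. The summed fibroblast markers ranged from 15.0 to 392 CPM between cultures, and the part of other cells in the results was not tested. In bulk RNA, fewer cells of a type and less RNA per cell cannot be told apart.

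Levels are given as CPM, the reads of a gene relative to the total of its culture, scaled by TMM factors, as mean ± SD over cultures. Fold changes are log2 values ± SE from edgeR's quasi-likelihood test, with p values adjusted over all genes tested by the Benjamini-Hochberg method. A gene was tested when at least 1 culture of the comparison reached 10 TPM, and was called when its adjusted p was under 0.05 and its log2 fold change at least 1 in size. TPM is corrected for exon length but not scaled by the TMM factors, and only TPM was used to compare different genes.

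Slfn2 was the main Schlafen transcript of BMDMs in every group. Per length it stood at 934 ± 133 TPM in control cultures at 3.5 h and at 521 ± 28.3 TPM at 16 h (n = 5 each), while Slfn5 stood at 42.8 ± 5.62 and 36.8 ± 5.76 TPM. Slfn8 and Slfn9 averaged between 5.28 and 15.8 TPM in control cultures, and Slfn1, Slfn3 and Slfn4 at most 1.90 TPM. Slfn2 thus made up 93.2 ± 1.0% of the summed TPM of the 7 genes in control cultures at 3.5 h and 88.9 ± 1.9% at 16 h.

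The summed TPM of the family was higher with both agonists at both times. It was 1002 ± 139 in controls, 5046 ± 396 with VWF and 6041 ± 477 with LPS at 3.5 h, and 586 ± 39.0, 1485 ± 120 and 5812 ± 269 at 16 h. TPM carries no TMM factors, so the size of a difference between groups is not the same in TPM as in CPM. At 3.5 h the mean TPM of Slfn2 went from 934 in controls to 4458 with VWF and 4888 with LPS. In CPM its mean was 5.98-fold higher with VWF and 8.67-fold higher with LPS. The share of Slfn2 was lowest with LPS at 16 h, at 67.1 ± 4.4% (between 63.6% and 73.5%), below every culture with LPS at 3.5 h (between 79.3% and 82.3%). Slfn4 then held 13.6 ± 3.2% and Slfn1 7.25 ± 0.99%, after 0.386 ± 0.075% and between 1.34% and 1.64% with LPS at 3.5 h. With VWF at 16 h the shares of Slfn4 and Slfn1 were 1.37 ± 0.52% and 4.13 ± 1.33%.

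**Figure D1:**
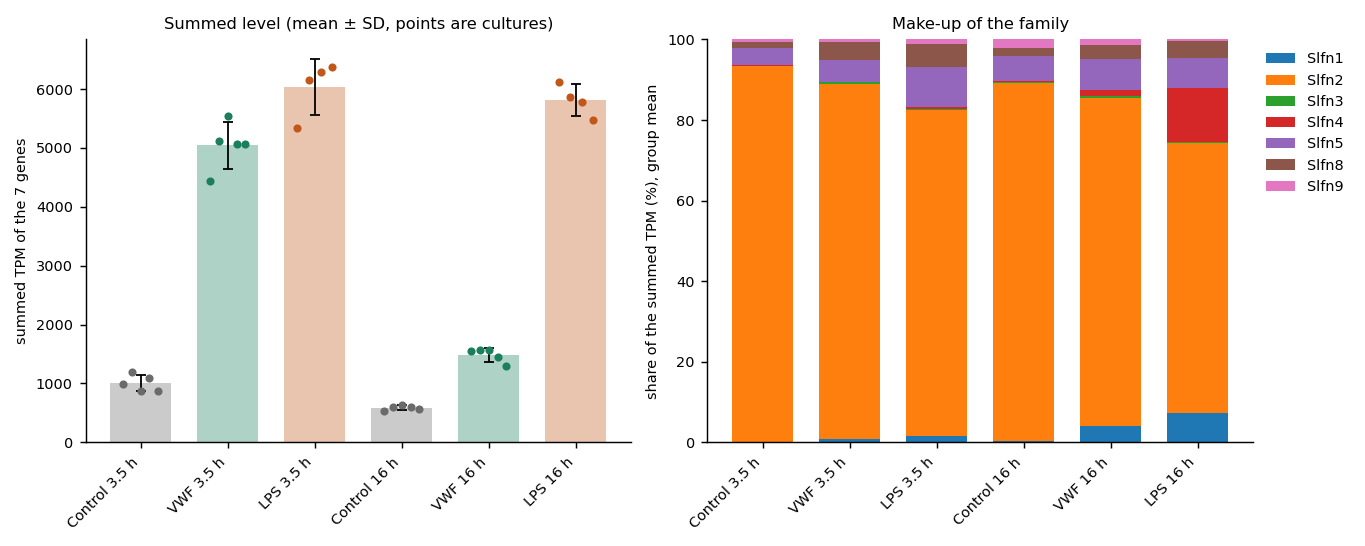
The summed TPM of the 7 Schlafen genes in the 6 groups, with the cultures and the mean ± SD, and the mean share (%) of each gene in that sum. The sum is near 5046 with VWF at 3.5 h and near 1485 at 16 h, and Slfn4 reaches 13.6% of it with LPS at 16 h. TPM is not scaled by the TMM factors.

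The first question was whether VWF changed the family by itself, at 3.5 h. All 7 Schlafen genes were higher in the VWF-treated than in the control cultures, where 9.10% of all genes tested were called higher. Slfn1, Slfn3, Slfn4 and Slfn9 stayed under 10 TPM in every control culture. They were tested only through the VWF-treated cultures, so a call in the other direction was hardly possible for them. In the fit without the filter of 10 TPM all 7 were also called higher, where 1393 of 26147 genes were. For each of the 7, every VWF-treated culture stood above every control culture. The increases ran from 2.49 ± 0.15 on the log2 scale for Slfn2 to 5.15 ± 0.38 for Slfn1, with adjusted p values of at most 1.8e-05 in edgeR's test.

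In the short group, Slfn2 was at 454, 590, 466, 451 and 394 CPM in the 5 control cultures and at 2096, 2978, 3554, 3023 and 2438 CPM in the 5 VWF-treated cultures. The lowest treated culture lay far above the highest control, and the mean was 5.98-fold higher (edgeR, adjusted p = 1.3e-07). Slfn1, which blocks T cell growth when overexpressed, was barely detected in controls, with between 0.248 and 1.07 CPM from 12 to 65 reads. With VWF it reached 21.4, 25.9, 25.2, 38.3 and 19.7 CPM, and its fold change rests on that small base (edgeR, adjusted p = 6.6e-07).

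The intermediate group was also low in controls. Slfn4, a myeloid gene whose transcript falls as macrophages differentiate, went from 1.26 ± 0.594 to 14.1 ± 4.72 CPM (log2 fold change 3.38 ± 0.37). Its close copy Slfn3 went from 1.91 ± 0.877 to 19.2 ± 7.56 CPM (3.25 ± 0.36). The highest VWF-treated culture was culture 5 for Slfn3, at 30.5 CPM, and culture 4 for Slfn4, at 21.9 CPM.

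In the long group, Slfn5 was at 86.8, 83.2, 82.5, 87.0 and 69.5 CPM in controls and at 478, 552, 707, 795 and 732 CPM with VWF (2.91 ± 0.14; edgeR, adjusted p = 2.8e-08). Slfn8 went from 19.4 ± 3.73 to 340 ± 67.1 CPM (4.05 ± 0.17), and Slfn9 from 9.30 ± 3.44 to 66.5 ± 21.2 CPM (2.75 ± 0.28). In all 3 genes the lowest VWF-treated culture lay above the highest control, for Slfn9 at 48.0 against 14.9 CPM.

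**Figure D2:**
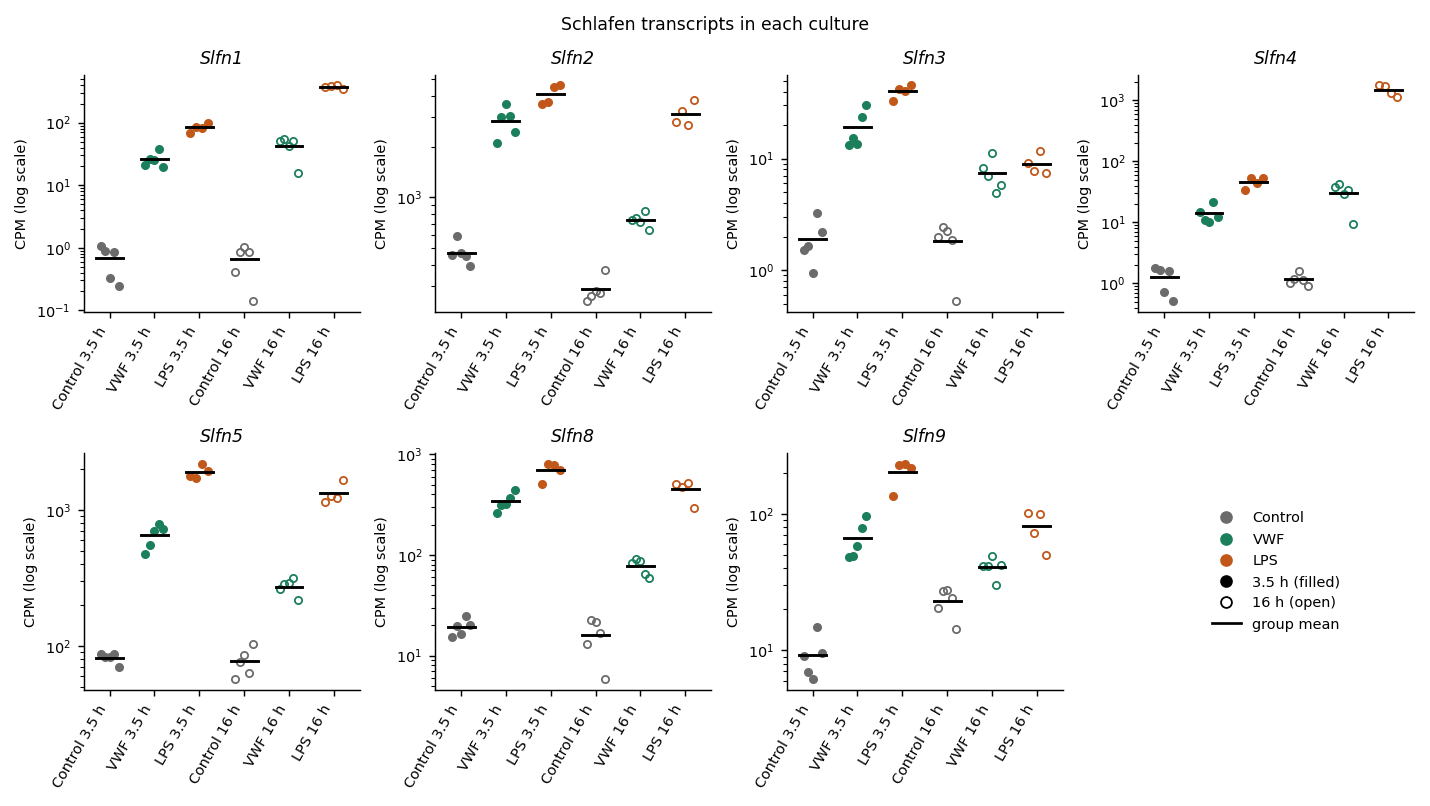
Each panel shows a Schlafen gene, with CPM on a log scale in the 6 groups and a point for each culture. At 3.5 h every VWF-treated and LPS-treated culture stands above every control culture in all 7 panels, and Slfn4 averages 1487 CPM with LPS at 16 h.

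LPS was the reference stimulus. At 3.5 h all 7 genes were higher with LPS than in controls, where 12.8% of all genes tested were called higher. Slfn1, Slfn3, Slfn4 and Slfn9 were again tested only through the treated cultures. Without the filter of 10 TPM all 7 were called higher too, where 2141 of 25626 genes were. The log2 fold changes ran from 3.07 ± 0.14 for Slfn2 to 6.88 ± 0.35 for Slfn1, with adjusted p values of at most 2.0e-07. Slfn5 reached 1923 ± 210 CPM, Slfn8 698 ± 133 CPM and Slfn9 204 ± 46.1 CPM (n = 4). These control cultures are also those of the VWF comparison, so both sets of fold changes are not independent.

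VWF and LPS were then compared with each other at 3.5 h. Here 6 of the 7 Schlafen genes were called lower with VWF, where 6.71% of all genes tested were. Slfn4 (-1.73 ± 0.23), Slfn1 (-1.71 ± 0.18), Slfn9 (-1.63 ± 0.23) and Slfn5 (-1.57 ± 0.14) differed most, and Slfn3 (-1.07 ± 0.24) and Slfn8 (-1.05 ± 0.16) lay just past the fold threshold. Slfn2 was under it, at -0.55 ± 0.14 (edgeR, adjusted p = 0.0078), with 2818 ± 564 CPM for VWF and 4086 ± 529 CPM for LPS. The LPS cultures of Slfn2, at 3569, 3694, 4473 and 4606 CPM, all lay above the highest VWF-treated culture, the lowest of them by a narrow gap. In TPM, which is not scaled by the TMM factors, the groups overlapped, with LPS from 4351 and VWF up to 5022. With scaling by library size alone, Slfn3 (-0.77) and Slfn8 (-0.75) were no longer called. The call of Slfn3 was also lost without VWF-treated culture 1 (-0.98) or 3 (-0.96), and that of Slfn8 without VWF-treated culture 1 (-0.99) or LPS culture 2 (-0.96).

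At 16 h, 5 of the 6 Schlafen genes tested were called higher with VWF than in controls, where 4.55% of all genes tested were. Slfn1 and Slfn4 stayed under 10 TPM in every control culture and were tested only through the VWF-treated ones. These genes were also called higher without the filter of 10 TPM, where 647 of 26455 genes were. Slfn9 passed the p threshold alone (0.72 ± 0.18; edgeR, adjusted p = 0.013). Slfn2 stood at 244, 263, 280, 270 and 370 CPM in controls and at 737, 760, 714, 836 and 643 CPM with VWF (1.26 ± 0.13; edgeR, adjusted p = 4.4e-05). The highest of these controls was culture 5, which stood apart. Slfn5 (1.72 ± 0.17) and Slfn8 (2.17 ± 0.32) were also higher, at 273 ± 36.8 and 77.2 ± 14.3 CPM.

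Slfn1 and Slfn4 showed the largest differences from control among the members at 16 h, with 5.91 ± 0.53 and 4.59 ± 0.39. With VWF, Slfn1 was at 51.8, 54.2, 42.8, 50.2 and 15.6 CPM and Slfn4 at 37.4, 41.9, 28.8, 34.3 and 9.34 CPM. In both genes culture 5 was the lowest, though far above the controls, which reached at most 1.02 CPM for Slfn1 and averaged 1.17 ± 0.260 CPM for Slfn4. Slfn3 stayed under 10 TPM in all cultures at 16 h and was not tested there. It stood at 7.44 ± 2.49 CPM with VWF and 1.81 ± 0.749 CPM in controls, without overlap. In the fit without that filter it was called higher than control with VWF (1.99 ± 0.34; edgeR, adjusted p = 0.0015) and with LPS (2.37 ± 0.35; edgeR, adjusted p = 0.00018).

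With LPS at 16 h, all 6 genes tested were higher than in controls, where 15.3% of all genes tested were called higher and 12.4% lower. Slfn1 and Slfn4 were again tested only through the treated cultures. They were called higher without the filter of 10 TPM too, where 2299 of 26410 genes were. Slfn4 now differed most, with 1765, 1719, 1329 and 1134 CPM against that mean of 1.17 CPM in controls (10.27 ± 0.26; edgeR, adjusted p = 1.1e-08). Slfn1 followed with 366, 386, 396 and 349 CPM (9.11 ± 0.50; edgeR, adjusted p = 4.4e-07). Slfn8 (4.78 ± 0.39), Slfn5 (4.08 ± 0.23) and Slfn2 (3.42 ± 0.18) were higher as well, and Slfn9 differed least (1.80 ± 0.25). Without the cultures that stood apart, the values were 10.33 for Slfn4, 8.91 for Slfn1 and 1.85 for Slfn9.

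VWF was lower than LPS at 16 h for all 6 Schlafen genes tested, where 14.5% of all genes tested were called lower. Slfn4 differed by -5.64 ± 0.43, and its LPS mean was 49.0 times its VWF mean. Slfn1 (-3.15 ± 0.32), Slfn8 (-2.56 ± 0.19), Slfn5 (-2.32 ± 0.15) and Slfn2 (-2.11 ± 0.13) followed, and Slfn9 was just past the threshold (-1.02 ± 0.21). Slfn9 moved under it with the replicate number as a block (-0.99 ± 0.11), with scaling by library size alone (-0.58), and without LPS culture 1 (-0.87), LPS culture 3 (-0.93) or VWF-treated culture 4 (-0.93). Slfn3 was not tested, and its LPS cultures, at 9.01 ± 1.96 CPM, overlapped with the VWF-treated ones (-0.32 ± 0.23 without the filter, not called).

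**Figure D3:**
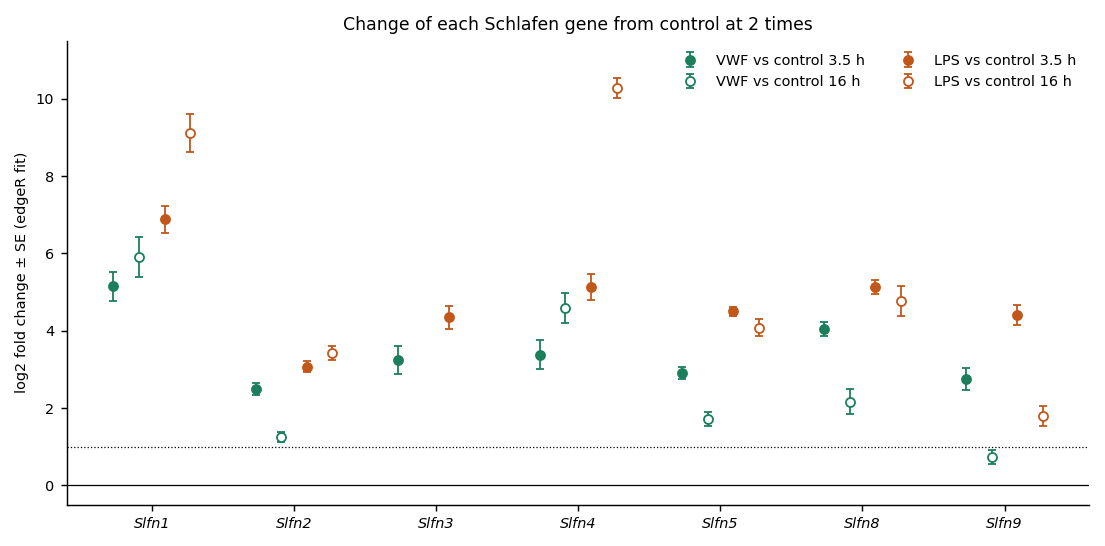
Log2 fold change ± SE of each Schlafen gene from control, with VWF and with LPS at 3.5 h and 16 h. Slfn3 has no value at 16 h because it was not tested, Slfn4 with LPS goes from 5.13 to 10.27, and Slfn9 with VWF goes from 2.75 to 0.72.

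The change between the times was measured within each treatment. In control cultures 4 members were tested and 1 was called higher at 16 h, Slfn9 (1.33 ± 0.26; edgeR, adjusted p = 0.0023), where 4.00% of all genes tested were. Slfn9 stayed under 10 TPM in controls at 3.5 h and was tested only through 16 h. Without that filter it was called as well (1.29 ± 0.23). It stood at 9.05, 6.90, 6.13, 14.9 and 9.51 CPM at 3.5 h and at 20.3, 27.5, 27.8, 24.3 and 14.4 CPM at 16 h. The times overlapped, since culture 4 at 3.5 h lay above culture 5 at 16 h. Slfn2 was lower at 16 h by less than the fold threshold (-0.67 ± 0.15), without overlap, and Slfn5 and Slfn8 overlapped between the times.

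With VWF, 4 members were lower at 16 h than at 3.5 h, where 12.2% of all genes tested were, and 1 was higher, where 9.15% were. The lower ones were Slfn8 (-2.08 ± 0.16), Slfn2 (-1.88 ± 0.13), Slfn3 (-1.32 ± 0.28) and Slfn5 (-1.20 ± 0.14), each without overlap between the times. Slfn3, under 10 TPM at 16 h, was tested only through 3.5 h and was called without that filter too (-1.37 ± 0.28). Slfn4 was called higher (1.16 ± 0.35; edgeR, adjusted p = 0.013), although culture 5 at 16 h, with 9.34 CPM, lay below all 5 cultures at 3.5 h. This call was lost without a filter on low values (adjusted p = 0.055). Slfn1 differed by less than the fold threshold (0.77 ± 0.30) and by 1.01 ± 0.17 without culture 5 at 16 h. Slfn9 differed by -0.65 ± 0.20, with overlap.

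With LPS, 2 members were higher at 16 h than at 3.5 h, where 14.6% of all genes tested were, and 2 were lower, where 13.5% were. Slfn4 went from 34.5, 54.4, 43.8 and 52.5 CPM to at least 1134 CPM in every culture (5.07 ± 0.23; edgeR, adjusted p = 5.5e-07). Slfn1 rose 4.43-fold, from 84.5 ± 12.7 to 374 ± 20.9 CPM (2.21 ± 0.11). Slfn3, which lies next to Slfn4 and is closest to it in coding sequence, fell from 40.1 ± 5.30 to 9.01 ± 1.96 CPM (-2.09 ± 0.17; edgeR, adjusted p = 8.4e-06). It was tested only through 3.5 h and was called without the filter of 10 TPM too (-2.11 ± 0.17). Slfn9 fell as well (-1.26 ± 0.25). Slfn2 differed by -0.31 ± 0.14 (edgeR, adjusted p = 0.083), and Slfn5 (-0.46 ± 0.14) and Slfn8 (-0.58 ± 0.20) by less than the fold threshold.

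Whether a treatment effect changed with time was tested as an interaction, which takes the change in controls into account. The effect of VWF was smaller at 16 h for 4 members, where 7.77% of all genes tested were called lower. They were Slfn9 (-1.99 ± 0.34), Slfn8 (-1.84 ± 0.35), Slfn2 (-1.20 ± 0.20) and Slfn5 (-1.16 ± 0.23). For Slfn9 the interaction includes the higher control level at 16 h, 22.9 against 9.30 CPM. Slfn3 (-1.29 ± 0.51; edgeR, adjusted p = 0.062) and Slfn4 (1.24 ± 0.52; edgeR, adjusted p = 0.078) missed the p threshold, as did Slfn1 (0.80 ± 0.60). Slfn3 was called without control culture 5 at 16 h, which stood apart (-1.53 ± 0.44; edgeR, adjusted p = 0.0091), and Slfn4 without VWF-treated culture 5 at 16 h (1.47 ± 0.43; edgeR, adjusted p = 0.012).

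The effect of LPS was larger at 16 h for Slfn4 (5.15 ± 0.43; edgeR, adjusted p = 4.0e-08) and Slfn1 (2.24 ± 0.54), 2 members where 13.5% of all genes tested were called higher. It was smaller for Slfn9 (-2.59 ± 0.38) and Slfn3 (-2.04 ± 0.49), 2 members where 12.8% were called lower. For Slfn2, Slfn5 and Slfn8 the difference lay between -0.41 and 0.36 and missed the p threshold. Compared directly, the change from 3.5 h to 16 h was lower with VWF than with LPS for 4 members, where 14.3% of all genes tested were called lower. They were Slfn4 (-3.93 ± 0.47), Slfn2 (-1.58 ± 0.20), Slfn8 (-1.53 ± 0.26) and Slfn1 (-1.45 ± 0.37). Slfn5 passed the p threshold alone (-0.77 ± 0.22), and Slfn3 (0.74 ± 0.37) and Slfn9 (0.59 ± 0.33) missed it.

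The members followed different orders over the 6 groups. Slfn2, Slfn5 and Slfn8 ran from LPS at 3.5 h through LPS at 16 h, VWF at 3.5 h and VWF at 16 h down to the controls. Their LPS groups overlapped for Slfn2 and Slfn8, as did LPS at 16 h and VWF at 3.5 h. Slfn1 and Slfn4 ran from LPS at 16 h through LPS at 3.5 h, VWF at 16 h and VWF at 3.5 h to the controls. The VWF groups overlapped for both genes, and LPS at 3.5 h and VWF at 16 h overlapped for Slfn4. Slfn3 was highest with LPS and then VWF at 3.5 h, and its groups at 16 h with LPS and VWF overlapped. Slfn9 was highest with LPS at 3.5 h, followed by LPS at 16 h and the VWF groups, which overlapped as neighbours. The control times overlapped for every member but Slfn2.

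Genes with a like pattern were ranked by the root mean square difference in log2 CPM over the 6 group means, each gene centred on its own mean, among 8867 genes. Nearest to Slfn2 were Samd9l (0.209), Clec2d (0.216) and N4bp1 (0.247). Nearest to Slfn5 were Mndal (0.251), Irgm1 (0.287) and Ifi211 (0.290), and nearest to Slfn8 were Bcl2a1a (0.326), Ifi211 (0.332) and Irgm2 (0.344). Mndal and Ifi211 belong to the Ifi200 family of interferon-inducible nuclear proteins, and Irgm1 and Irgm2 are immunity-related GTPases. Slfn4 was nearest to Ms4a4c (0.653), Apol9b (0.764) and Isg20 (0.954), an interferon-stimulated exonuclease, and Slfn1 to Ifi206 (0.427), the guanylate-binding protein gene Gbp6 (0.485) and Tarm1 (0.588). Slfn3 was nearest to Gm11772 (0.269), Tagap (0.399) and Gm38275 (0.400), and Slfn9 to 2500002B13Rik (0.215), Tent5a (0.396) and Nfxl1 (0.399). These distances describe 6 means and are larger for genes with a wide span, such as Slfn4.

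Genes of the interferon pathway, a list of 16 ligand, receptor, kinase, transcription factor and feedback genes, were measured beside the family. At 3.5 h all 16 were tested, and 11 were called higher with VWF, where 9.10% of all genes tested were, and 10 with LPS, where 12.8% were. Ifnb1, which encodes interferon beta, averaged 0.0408 CPM in controls, 4.15 CPM with VWF and 173 CPM with LPS. The feedback inhibitors Socs1 (6.03 ± 0.26) and Usp18 (5.25 ± 0.34) and the transcription factor Stat2 (3.23 ± 0.18) were higher with VWF. The median log2 fold change of the list was 1.71 with VWF and 2.58 with LPS, beside 3.25 and 4.51 for the Schlafen genes and -0.0088 and -0.017 for all genes tested.

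At 16 h, 4 of the 14 pathway genes tested were higher with VWF, where 4.55% of all genes tested were, among them Irf7 (4.57 ± 0.31), Usp18 (4.01 ± 0.36) and Stat2 (1.93 ± 0.36). With LPS 12 of 15 were higher and 1 lower, where 15.3% and 12.4% of all genes tested were. Among the higher ones were Usp18 (7.53 ± 0.41) and Irf7 (6.80 ± 0.33). The medians were 0.64 with VWF and 1.65 with LPS, beside 1.94 and 4.43 for the Schlafen genes tested and -0.030 and -0.029 for all genes. Compared with LPS, 5 of 16 pathway genes were lower with VWF at 3.5 h, where 6.71% of all genes tested were. At 16 h 8 of 15 were lower and 1 higher, where 14.5% and 11.1% were.

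The processes in which Slfn2 is best known were represented by short lists. Of 8 proliferation genes, 1 was lower with VWF at 3.5 h, Mcm2 (-1.05 ± 0.29), where 5.59% of all genes tested were. At 16 h 3 were lower, where 4.15% were, the proliferation marker Mki67 (-1.45 ± 0.17) and the cyclins Ccna2 (-1.37 ± 0.19) and Ccnb1 (-1.20 ± 0.20). The list went both ways there, since by adjusted p alone 5 of the 8 were lower and 2 higher (median -0.87). With LPS, 2 were lower at 3.5 h, where 11.8% were, and 7 at 16 h, where 12.4% were, with a median of -3.58 at 16 h and Ccna2 at -6.75 ± 0.46. By adjusted p alone, 5 were lower and 1 higher with LPS at 3.5 h. Of the transfer RNA genes, Ang, which encodes the ribonuclease angiogenin, Rnh1, its inhibitor, and the methyltransferase Nsun2 were tested. None was called for VWF against control at either time, where Nsun2 (0.35 ± 0.06) and Rnh1 (-0.35 ± 0.11) passed the p threshold alone at 3.5 h. With LPS at 16 h Ang was lower (-1.05 ± 0.26), where 12.4% of all genes tested were. By adjusted p alone, 2 of the 3 were lower there and 1 higher.

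The other Schlafen genes and the genes around the cluster were measured in the same way. The pseudogene Slfn10-ps, which lies between Slfn8 and Slfn2, averaged 5.43, 7.19 and 5.21 CPM at 3.5 h in controls, with VWF and with LPS, and 1.92, 4.34 and 14.1 CPM at 16 h. It was higher than control with LPS at 16 h (2.84 ± 0.57; edgeR, adjusted p = 0.0022), tested there only through LPS cultures over 10 TPM. Its value was 0.34 ± 0.39 with VWF at 3.5 h. In controls it was lower at 16 h than at 3.5 h (-1.46), where 5.09% of all genes tested were. The lowest control at 16 h was culture 5, which stood apart (0.388 CPM). Slfn10-ps shares 2.45% of the 100-base windows of Slfn8 and 3.04% of those of Slfn9, and the handling of multiply mapped reads is not known. Slfn14 had at most 5 reads in any culture, and Slfnl1, on chromosome 4, at most 3. Of 10 flanking genes, 3 or 4 were tested in each comparison with control. The ubiquitin ligase gene Rffl was higher at 3.5 h with VWF (1.31 ± 0.12) and LPS (1.43 ± 0.20). Of all genes tested, 9.10% and 12.8% were called higher there. With LPS at 16 h Rffl was higher (1.82 ± 0.33) and Nle1 lower (-1.53 ± 0.25), where 15.3% and 12.4% of all genes tested were. So few tested genes do not describe the neighbourhood. Ap2b1 was not called.

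**Figure D4:**
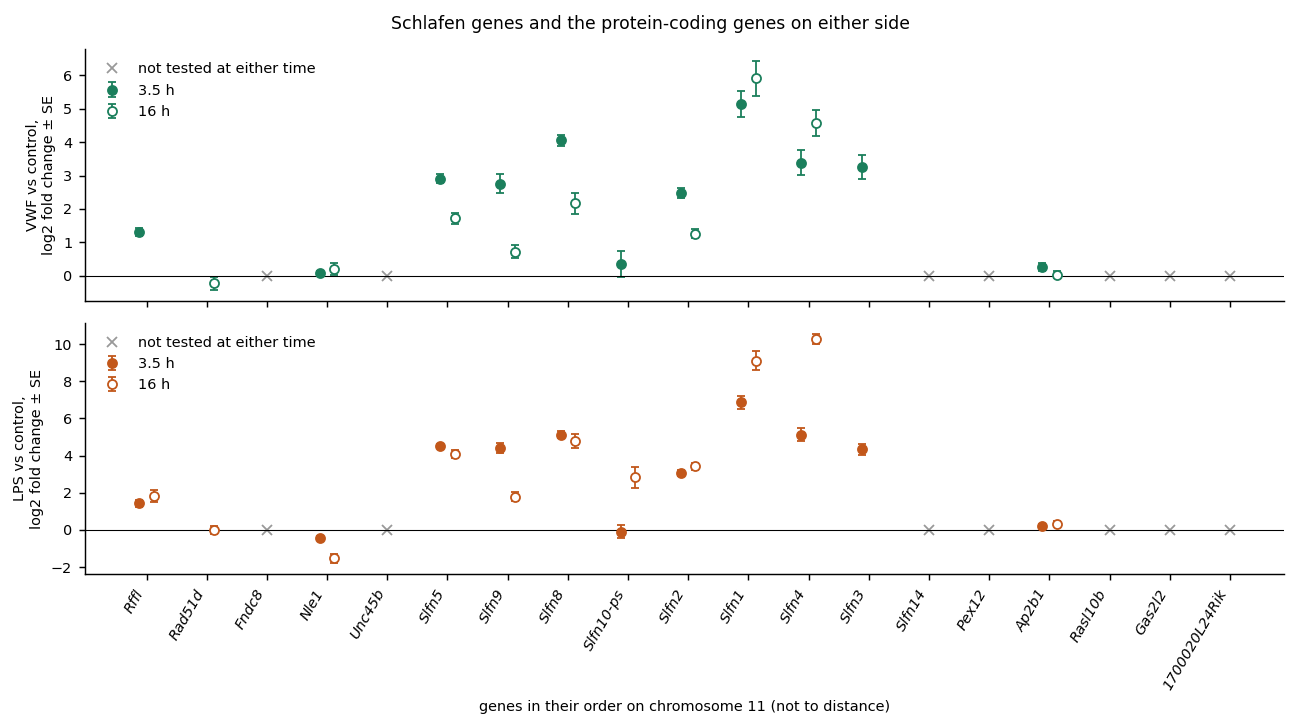
Log2 fold change from control of the Schlafen and flanking genes in their order along chromosome 11, with VWF and LPS at both times (± SE, crosses for genes not tested). Slfn4 stands at 10.27 with LPS at 16 h, and the flanking gene Rffl at 1.82.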

How the data were processed

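RNA from 28 BMDM cultures was sequenced as paired-end reads. The authors aligned them with STAR to GRCm38 (mm10) and deposited whole-number read counts per gene, not normalized. For annotation, strand setting and multiply mapped reads the sources used here give nothing. Counts were analysed with edgeR 4.0.16 in R 4.3.3 (TMM factors, robust quasi-likelihood fit, Benjamini-Hochberg adjustment), separately for each comparison, and with DESeq2 1.42.0 as an alternative. TPM used union exon lengths of GENCODE M21. Promoter windows were read from RefSeq (GRCm38.p6), which matched 7 of 7 members. The fits were tested on simulated data. Of 52 pairs of cultures within groups, none was a duplicate (lowest chi-square per degree of freedom 12.4).

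The named genes were all members, other Schlafen genes, up to 4 genes with the largest change from each list, and the 3 nearest genes by pattern. Some named items are not reported here. The members and lists were chosen with earlier results of these data known. Alternatives were other scaling, filters and tools, the replicate block, all groups in 1 fit and each culture left out. The labels do not say what replicate numbers share. At 16 h all 4 same-numbered pairs of VWF-treated and LPS-treated cultures had correlations from 0.16 to 0.78, over the limit of 0.1. No other pair of groups passed that limit throughout. The correlations of VWF at 16 h with LPS at 3.5 h ran from 0.081 to 0.26. Cultures with different numbers were not compared, so these values do not show what the numbers share.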

Additional observations from a re-analysis of the deposited data

Results flagged for a closer look

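In 48 sets of a gene in a group, 3 held a culture far from the others by Dixon's test, which by chance marks about 1 set in 20. They were Slfn2 in control culture 5 at 16 h (370.07 CPM), Slfn5 in control culture 5 at 3.5 h (69.5 CPM) and Slfn9 in LPS culture 1 at 3.5 h (136 CPM).

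The interaction of treatment and time passed the threshold for the following members. For VWF it was -1.20 for Slfn2, -1.16 for Slfn5, -1.84 for Slfn8 and -1.99 for Slfn9. For LPS it was 2.24 for Slfn1, -2.04 for Slfn3, 5.15 for Slfn4 and -2.59 for Slfn9. The time courses of VWF and LPS differed by -1.45 for Slfn1, -1.58 for Slfn2, -3.93 for Slfn4 and -1.53 for Slfn8.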

How the results depend on the processing

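Of 674 alternatives over 78 member results, 665 kept direction and side of the threshold, as did 903 of 922 fits that left out a culture. None of 1225 alternatives changed the sign of a log2 fold change of at least 1. Leaving out a culture gave -0.19 to 0.06 (0.063 at most) for Slfn5 in controls at 16 h against 3.5 h, -1.33 to -0.96 for Slfn3 and -1.18 to -0.96 for Slfn8 in VWF against LPS at 3.5 h, -1.20 to -0.87 for Slfn9 in VWF against LPS at 16 h, and -1.60 to -1.07 for Slfn3 and 1.06 to 1.47 for Slfn4 in the VWF interaction. That interaction passed for Slfn3 with DESeq2 (-1.32) and, with all groups in 1 fit, for Slfn3 (-1.31) and Slfn4 (1.22). The replicate block moved Slfn9 in VWF against LPS at 16 h to -0.99 and changed no other call of a member. Leaving out both cultures that stood apart was chosen after seeing the data. The cause was not tested. Counts of all genes called rose with other filters, to 2099 (filterByExpr) and 2366 (no filter) from 1204 for VWF and to 3917 and 4542 from 2010 for LPS against control at 3.5 h, to 1362 and 1378 from 679 and to 4087 and 4224 from 2210 at 16 h, and to 1776 and 1942 from 856 and to 3897 and 4242 from 1932 for VWF against LPS at 3.5 h and 16 h. Between the times they rose to 1570 and 1524 from 757 in controls, to 3458 and 3974 from 1694 with VWF and to 4116 and 4298 from 1964 with LPS, and for the interactions to 1972 and 1904 from 1166 (VWF), 3790 and 3613 from 2301 (LPS) and 3576 and 3528 from 2052 (time courses). Scaling by library size alone moved the share of higher calls by over 10 points in 6 of 12 comparisons, from 62.0% to 48.3% for VWF and from 52.1% to 24.1% for LPS against control at 3.5 h, from 41.2% to 69.8% for VWF against LPS at 3.5 h, from 55.2% to 25.2% for LPS against control and from 43.3% to 72.1% for VWF against LPS at 16 h, and from 42.8% to 56.8% between the time courses, with shifts of the median of all genes between -0.56 and 0.46. Low control counts of Slfn1 (8 to 76 reads) limit its fold change.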

Other observations

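Other genes inside the Schlafen cluster with at least 1000 reads in all, chosen after their values were seen, stood at the following mean CPM. AI662270 was at 64.0, 91.3 and 123 in controls, with VWF and with LPS at 3.5 h, and at 68.5, 89.9 and 88.6 at 16 h. Gm11427, which shares sequence with Slfn3 (2.75% of its windows) and Slfn4 (0.22%), was at 4.68, 5.25 and 7.91 at 3.5 h, and at 7.24, 11.03 and 18.5 at 16 h. Gm11425 was at most 5.47 (LPS at 16 h), and Gm20234 at most 2.33 (VWF at 3.5 h).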
